A study of Mus musculus with 4 samples.

Results

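The m6A peaks that were listed in pancreatic islets of mice lacking Wtap in beta cells are described here. All 9411 peaks of the knockout list were taken, of 20375 peaks over both genotypes' lists. Each peak was called from 1 knockout immunoprecipitation (IP) library over 1 knockout input library. The IP library held RNA fragments bound by an m6A antibody, and the input library held the same fragmented RNA before that step. Knockout islets (Wtap-βKO) came from mice aged 7 weeks, with 2 µg of RNA pooled from 19 animals. The control islets (Wtapflox/flox), with 10964 peaks, came from 10 mice of the same age and enter only side by side. Both genotypes carried floxed Wtap and ate normal chow. Since each genotype was sampled as 1 pool, values carry no replicate error and the genotypes were not tested against each other.

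N6-methyladenosine is a common internal modification of mRNA, written by a complex whose catalytic subunit is METTL3 and whose regulatory subunit WTAP holds it at nuclear speckles. It is often found near stop codons, in long internal exons and in the 3′ untranslated region, at adenosines within short motifs such as GGAC. Reader proteins that bind it act on splicing, translation and decay of the transcript.

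Wtap was removed in beta cells, and the driver of that deletion was not given in the sources used here. By this design, alpha, delta, PP, endothelial and other islet cells kept the gene, which was not measured by cell type here. Peaks from those cells and peaks remaining in beta cells cannot be told apart in whole islets. In such bulk RNA, fewer cells of a type and less RNA per cell cannot be told apart either. Wtap itself (ENSMUSG00000060475) had 1 knockout peak on chromosome 17, minus strand, from 12969434 to 12972739. This peak had 181 nt over 2 exon blocks and a fold of 3.37. It shared no base with a control peak, although Wtap had 2 control peaks. Fold here is the peak caller's ratio of IP over input. The position of the loxP sites was not given in the sources used here, and the peak therefore does not check the genotype.

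Short stretches of 167 knockout peaks (1.77% of the list) could be read from RefSeq windows around gene starts, and the letters GGAC were more frequent on the transcribed strand of these stretches than on the other strand. In 13654 bases, GGAC occurred 83 times on the peak's strand and 39 times on the other. The peak's strand therefore held 68.0% of the copies (95% interval 59.0 to 76.2). Its 83 copies lay in 54 peaks, and the interval treats copies within a peak as independent. Over all 32817 promoter windows in the table, each of 300 bases, the densities were 3.82 and 3.87 per kb on the 2 strands, against 6.08 and 2.86 per kb in the peaks. Of each window, 250 bases lie before the start and 50 are transcribed, so the windows are mostly promoter sequence and differ in kind from the peaks. Of all these windows, 65.6% held GGAC on the gene's strand. Intervals are exact Clopper-Pearson intervals throughout and cover counting error only.

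The longer GGACT, which contains GGAC, occurred 20 times on the peak's strand and 8 times on the other, in 17 peaks (10.2%). It was present on the gene's strand in 26.1% of all windows, which are longer than the stretches read here. GAACT occurred 15 times against 6, and GGACA, which also contains GGAC, 23 times against 11, with intervals for the peak's strand of 47.8 to 88.7% and 49.5 to 82.6%. AGACT gave 14 against 9, with an interval of 38.5 to 80.3%. AAACT went the other way, with 4 against 8 and an interval of 9.92 to 65.1%. These 4 intervals include 50%. A match describes the letters of a window and is not a mapped m6A site, because the peaks are wider than 100 nt.

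The following windows of 30 bases show GGACT in capitals within peaks of 7 genes, chosen after their values were seen, to show the letters in transcripts of differing function. They were read 5′ to 3′ on the transcribed strand from RefSeq sequence of GRCm38.p6.
Jun, chr4:95052185-95052214, minus strand: caggctggataaGGACTcagagttgcactg
Irs2, chr8:11007807-11007836, minus strand: ctgaaacctaagGGACTgggccagagcaag
Nkx2-2, chr2:147183988-147184017, minus strand: aggcccagcagtGGACTtggtgagcgccgc
Cd276, chr9:58526165-58526194, minus strand: tacttttccaatGGACTtaattcccatcat
Nop14, chr5:34650487-34650516, minus strand: tgagagccatgaGGACTcagaagagagtga
Dnajb1, chr8:83608328-83608357, plus strand: ggccatgggcaaGGACTactatcagacgct
Atraid, chr5:31054552-31054581, plus strand: tggttcaggagtGGACTcgtactaatttgt

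Jun, an immediate early transcription factor gene, held 4 GGACT copies in the readable part of a single peak of 865 nt with a fold of 2.74. Irs2, the insulin receptor substrate gene, had a peak of 450 nt with a fold of 2.18. Nkx2-2, which encodes a transcription factor of endocrine islet cells, held 1 copy in each of 2 peaks, with folds of 2.03 and 1.66. The peaks around the windows of Cd276, Nop14, Dnajb1 and Atraid had folds of 4.89, 7.5, 3.84 and 2.92. A whole window around GGACT could be read in 13 knockout peaks, of which 10, with the 7 chosen genes among them, shared bases with a control peak, beside 61.6% of all knockout peaks.

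Most transcripts in the list carried a single peak, and a small group of genes carried many. The 9411 peaks lay in 5378 gene identifiers, with a mean of 1.75 per identifier. A single peak was listed for 3280 identifiers (61.0%, 59.7 to 62.3), 2 peaks for 1163 (21.6%) and 3 peaks for 506 (9.41%). The 429 identifiers with 4 or more peaks (7.98%, 7.27 to 8.73) held 2287 peaks, or 24.3% of the list. Across 4718 protein-coding genes, the Spearman correlation of peaks per gene with the length of the RefSeq gene span was 0.233. This describes genes that share 1 library pair. The span includes introns, and peak counts were not set against the exonic length of the transcript.

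**Figure D1:**
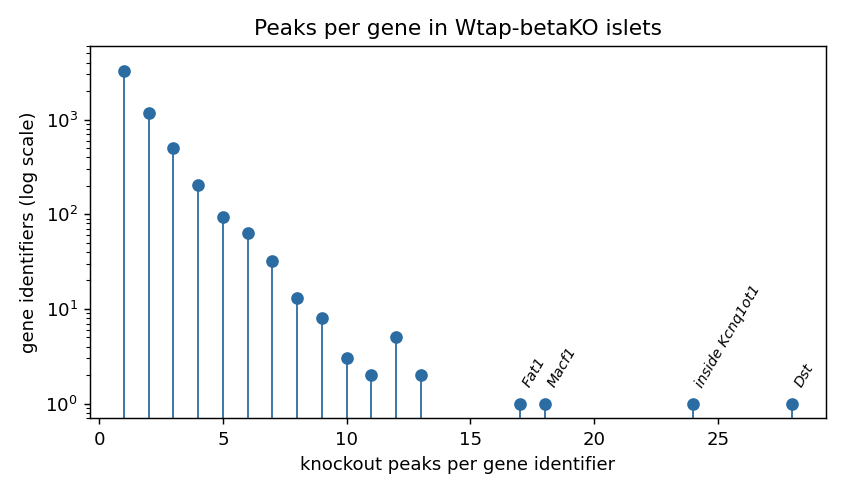
Number of gene identifiers (log scale) against knockout peaks per identifier. Identifiers with 1 peak number 3280, and the right end of the axis holds Fat1 with 17 peaks, Macf1 with 18, an unnamed identifier inside Kcnq1ot1 with 24 and Dst with 28.

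Genes of cytoskeletal linkers and cell adhesion headed the count. Dst, which encodes dystonin, a linker of the cytoskeleton, had 28 peaks over 8787 nt of exon, with folds from 1.51 to 8.97. Macf1, a related linker of actin and microtubules, had 18 peaks over 4666 nt. Fat1, an atypical cadherin, had 17 peaks over 4935 nt, and none of them crossed an exon junction, against 11 of the 28 in Dst and 8 of the 18 in Macf1. Plec, encoding plectin, and Syne1, which links the nuclear envelope to the cytoskeleton, had 13 peaks each.

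The other genes of the leading 10 had 12 peaks each. Peg3, an imprinted zinc finger gene, had 5039 nt under peaks and the highest −log10 q of the 10 genes, 103, with low folds of 1.46 to 2.75. Pclo, which encodes piccolo of the presynaptic active zone, had 8407 nt, of which one peak alone covered 3359 nt. The histone H3 lysine 4 methyltransferase genes Kmt2a and Kmt2d had 5887 and 4058 nt under peaks. Map2, a neuronal microtubule-associated protein gene, had 3249 nt under peaks with folds from 1.92 to 13.0. Median folds ran from 2.04 in Peg3 to 3.92 in Plec, and 8 of the 10 genes lay below the median of 3.43 over all peaks.

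Protein domains were given in the deposited list's own annotation of each gene, and were grouped after values were seen. Among the 4805 named identifiers, 8.78% had 4 or more peaks. Genes with a spectrin repeat, a rod-like module of cytoskeletal proteins, reached 53.3% (8 of 15, 26.6 to 78.7), with a mean of 7.00 peaks. Genes with a bromodomain, which binds acetylated lysine, reached 44.1% (15 of 34, 27.2 to 62.1), and those with a PHD zinc finger 34.5% (20 of 58, 22.5 to 48.1). SET domain genes reached 25.6% (11 of 43), PDZ domain genes 24.6% (14 of 57) and homeobox genes 23.8% (15 of 63). Cadherin genes, with Fat1 among them, had 9.09% (4 of 44) and immunoglobulin domain genes 10.6% (16 of 151), near the share of all named identifiers. Genes with a KRAB domain, found in many zinc finger repressors, had 5.26% (7 of 133, 2.14 to 10.5), a share whose interval includes that of all named identifiers. The groups overlap, since Kmt2a carries several of these domains.

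Peaks were short and mostly lay within 1 exon. The median exonic length, summed over a peak's exon blocks, was 210 nt, with quartiles of 151 and 312 nt and a range of 108 to 3446 nt. Peaks of 600 nt or more numbered 579 (6.15%). Golgb1, which encodes the Golgi protein giantin, held the longest peak at 3446 nt in 1 exon, with a fold of 7.66, and another of 3116 nt. Ankrd11, a chromatin regulator, had a peak of 3389 nt with a fold of 6.79, and the 3359 nt peak of Pclo had a fold of 9.53. Peaks of 2518, 2517, 2457 and 2340 nt followed in the splicing-related gene Scaf11, the Golgi tether gene Golga4, the microtubule protein gene Map1b and the mucin gene Muc4.

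Peaks covering more than 1 exon numbered 1696 (18%, 17.2 to 18.8). Of these, 1303 joined 2 exons with a median of 210 nt, and 393 joined 3 or more with a median of 330 nt. Kif21a, a kinesin gene, had a peak over 10 exons with 1290 nt and a fold of 6.66. The nonmuscle myosin gene Myh9 and the nesfatin precursor gene Nucb2 each had one over 9 exons, with folds of 3.43 and 3.59. Eif3a, a translation initiation factor gene, had one over 8 exons with 1796 nt. These 4 genes were chosen after their values were seen.

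Strength was given by fold and by q, which ordered the peaks differently. Fold had a median of 3.43 with quartiles of 2.56 and 5.05 and a range of 1.09 to 44.8. The median −log10 q was 4.63 and its lowest value was 1.45, for Mettl7a1, with Trim27 next at 1.48. Fold and −log10 q had a Spearman correlation of 0.0188 over 9396 peaks, whereas exonic length and −log10 q had 0.779. In the quintile of peaks with the lowest −log10 q the median length was 150 nt, and in the highest quintile it was 412 nt. Of 1196 peaks with a fold of 8 or more, 79.5% lay on whole multiples of 0.815. This step was chosen as the best fit to these same folds. Evenly spread folds would give 11.8% for a step set beforehand. Single high folds were therefore not ranked.

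A q of 0 was listed for 15 peaks, of which 6 were mitochondrial and are given further on. With mitochondrial and unnamed genes skipped, the highest −log10 q values lay mostly in transcripts of islet hormones and of the granules that store them. Gcg, which encodes glucagon, led these with a −log10 p of 2050 and a fold of 1.60 over 3 exons on chromosome 2, minus strand, 62476957 to 62480657. Its other peak had 542 and a fold of 1.82. Chga, the chromogranin A gene, followed with a −log10 p of 1430 and a fold of 2.94 over 1109 nt. Scg2, the secretogranin II gene, had peaks at 677 and 616, and Chgb, the chromogranin B gene, a peak at 653 with a fold of 3.28. For all of these and for Ppy the q was listed as 0, so −log10 p is given in its place. The rule's 10 peaks ended with Ins1 at a −log10 q of 222, the chaperone gene Hspa5 at 217 with a fold of 2.34 and the stimulatory G protein gene Gnas at 167 with a fold of 2.66.

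The hormone peaks combined very low p with very low fold. Ins2, an insulin gene, had 1 peak of 150 nt with a fold of 1.09, the lowest of all 9411 peaks, at a −log10 p of 150. Ins1, the other insulin gene, had a peak with a fold of 1.25, and 0.0638% of all peaks lay below it, and a second with a fold of 2.28. The somatostatin gene Sst had a fold of 1.58, Gcg 1.60 and 1.82, and the pancreatic polypeptide gene Ppy 1.65. Apart from the second Ins1 peak, at most 4.79% of all peaks had a fold below any of these hormone peaks. Iapp, the amylin gene, had no peak. Since p moves with the number of reads and read depth is unknown, a low p with a fold near 1 is no measure of the m6A level.

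**Figure D2:**
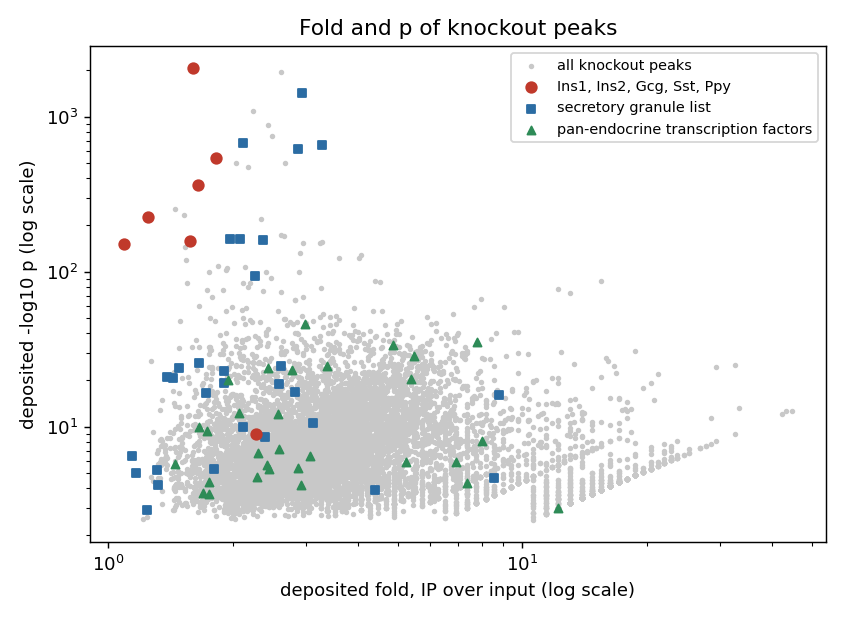
Deposited fold of IP over input (log scale) against deposited −log10 p (log scale), 1 point per knockout peak. The hormone peaks sit at the left and, apart from the second Ins1 peak with a fold of 2.28, near the top, from Ins2 at a fold of 1.09 to Gcg at a −log10 p of 2050.

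Mitochondrial transcripts, which are made outside the nucleus and so apart from the nuclear m6A writer, had 10 peaks, listed here after their values were seen. The electron transport gene mt-Nd4 had a fold of 13.9 with a −log10 p of 826. The 2 peaks of mt-Nd5 had folds of 2.67 and 2.24, and mt-Nd6, on the other strand, one of 2.43. The 2 peaks of mt-Co1 had folds of 1.45 and 13.0. Of these 10 peaks, all but those of mt-Nd4 and one of mt-Co1 had folds under 3.

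Genes of beta cells, of secretory granules and of shared endocrine transcription factors were covered more often than genes at large. Of 21900 protein-coding genes in RefSeq, 4718 had a knockout peak, or 21.5% (21.0 to 22.1), and the control list covered 25.4%. Of 155 genes in 12 cell type and function lists, 83 (53.5%) had a knockout peak, and 10 of 13 lists, with the m6A machinery included, lay above the share of all genes. A gene can lack a peak because its RNA is scarce as well as because it carries no m6A, and the input level of each gene was not used here.

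Of 22 beta cell genes, 18 had a knockout peak (81.8%, 59.7 to 94.8), with 34 peaks. The median over these 18 genes of each gene's median fold was 2.30. Prlr, the prolactin receptor gene, and Nkx2-2 had 6 listed peaks each, the most of the list. Those of Nkx2-2 partly overlap and cover 1156 nt. The Prlr peaks covered 2042 nt with folds from 1.64 to 3.62, and the strongest of them, 810 nt long, reached a −log10 q of 27.1. The glucose-6-phosphatase gene G6pc2 had 1 peak at a −log10 q of 99.4 with a fold of 1.93, and the zinc transporter gene Slc30a8 had 44.6 with a fold of 1.81. Ucn3, a marker of mature beta cells, had 1 peak with a fold of 2.30.

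Among the beta cell transcription factors, Pdx1 had 2 peaks with folds of 3.33 and 3.23, the second covering 810 nt, and Mafa had 1 peak of 298 nt with a −log10 q of 27.8. The sulfate-activating enzyme gene Papss2 had a single peak of 925 nt and the oxidoreductase gene Ero1lb one of 241 nt, with −log10 q of 20 and 16.6. No knockout peak was listed for Iapp, the incretin receptor gene Glp1r, the channel gene Trpm5 or the neuropeptide gene Npy, of which Glp1r and Trpm5 had 1 control peak each. In the other direction, Ins2, Sytl4 and Abcc8 appeared in the knockout list alone. The control list covered 17 of the 22 genes, and 15 were in both lists. Among all identifiers, 66.2% of the control list's were also in the knockout list, and 76.9% of the knockout list's were also in the control list. Of the 34 beta cell peaks, 25 (73.5%) shared bases with a control peak, beside 61.6% (60.6 to 62.5) of all knockout peaks.

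Transcription factors shared by endocrine cells had 12 of 14 members with a peak (85.7%, 57.2 to 98.2) and a mean of 2.50 peaks per gene with one, beside 1.82 over all protein-coding genes with a peak. Pax6, needed for hormone gene transcription, had 7 peaks, of which 4 crossed a junction, with folds from 1.69 to 7.99. Neurod1, an activator of insulin transcription, had 1680 nt under 2 peaks and the highest −log10 q of the list, 43.1. Foxa2 and Rfx6 had 4 peaks each, with 1114 and 902 nt, and St18 had 3 peaks with 1350 nt. Myt1, Isl1 and Glis3 had 2 peaks each, with best −log10 q of 32.4, 20.5 and 4.93. Insm1 had 1 peak at 5.15. Rfx3, with 1 control peak, and Foxa1 had no knockout peak.

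All 12 secretory granule genes had a knockout peak (73.5 to 100%), and the median over genes of each gene's median fold was 2.07. Pcsk2, which cleaves proglucagon and proinsulin, had 5 peaks over 1504 nt, and Scg3, a secretogranin gene, had 4 over 1610 nt, of which one spanned 6 exons. Chgb had 2028 nt and Scg2 1917 nt under peaks. Low folds also occurred here, with 1.39 for the carboxypeptidase gene Cpe, 1.24 and 1.48 for Scg5, and 1.14 for the weakest Scg2 peak. Pam, the gene of the peptide-amidating enzyme, had 3 peaks, all over a junction, with folds from 1.31 to 1.90. The synaptotagmin gene Syt7 had 3 peaks with folds up to 8.56. Cpe and Scg5 were without a control peak, and 76.9% of all knockout identifiers had one. Of the 30 granule peaks, 18 (60%) shared bases with a control peak, near the 61.6% of all knockout peaks.

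Among the lists of other islet endocrine cells, alpha cell genes had 9 of 14 members with a peak (64.3%, 35.1 to 87.2). Beside Gcg and the broadly expressed Peg3, the homeobox genes Irx1 and Irx2 had 2 and 3 peaks with best −log10 q of 22.2 and 20.5. Cltrn, which the file lists as Tmem27, had a best −log10 q of 29.5, the transthyretin gene Ttr 23.9, Etv1 10.5 and Pou3f4 2.21. Neither Cltrn, Ttr nor Pou3f4 had a control peak, while 76.9% of all knockout identifiers had one. Of the 27 alpha cell peaks, 19 (70.4%) shared bases with a control peak, beside 61.6% of all knockout peaks. Members without a knockout peak included Gc, Slc38a5, Fev and Loxl4.

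Delta cell genes had 5 of 8 with a peak, each with 1. Sst had a −log10 q of 155, while the other 4, among them Rbp4, Sstr1 and Hhex, lay between 2.58 and 5.88. The 1 Hhex peak had a fold of 27.7, which lies on the repeated step. Ghsr, Lepr and Bche had none. Of 6 PP and epsilon cell genes, Ppy and Sertm1 had a peak, and Pyy, Ghrl, Tspan8 and Irs4 had none.

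**Figure D3:**
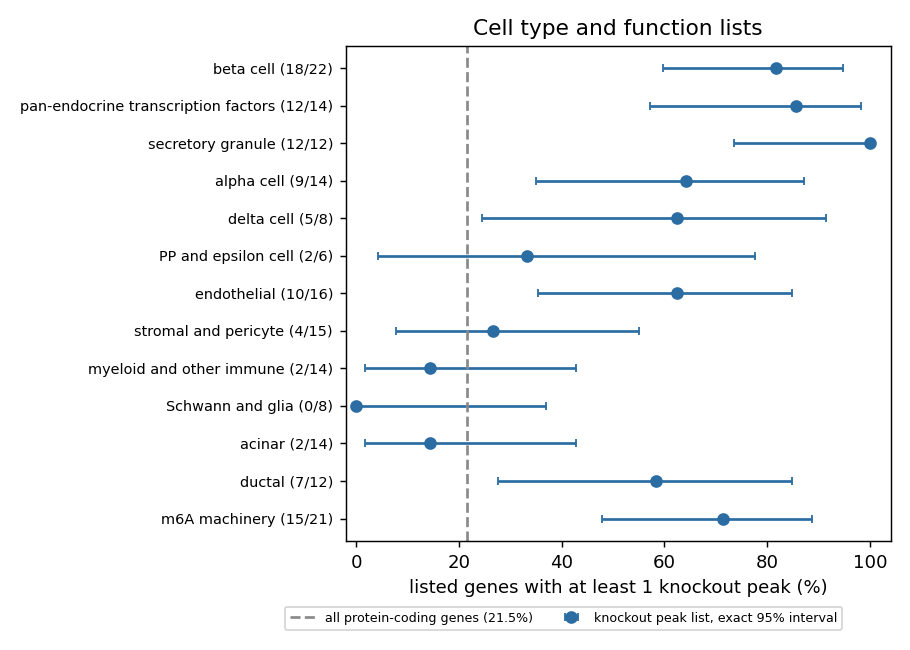
Percentage of each list's genes with at least 1 knockout peak (points) with exact 95% intervals (bars), for 13 lists. The dashed line marks the 21.5% of all protein-coding genes, and the secretory granule list sits at 100% and the Schwann and glia list at 0%.

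Endothelial genes, expressed in the capillaries that supply the islet, had 10 of 16 members with a peak (62.5%, 35.4 to 84.8). Esm1 had the highest −log10 q, 30, followed by Plvap, a gene of fenestrated endothelium, at 28.9, the VEGF receptor gene Kdr at 28.4 and the transcription factor gene Sox18 at 20.2. Eng had 16.7, Pecam1 13.6, Flt1 10.1 and Cdh5 9.03. Emcn and Notch4 lay near the threshold at 2.03 and 1.99. Of the 16 endothelial peaks, 13 (81.2%) shared bases with a control peak, beside 61.6% of all knockout peaks. Tie1, with 1 control peak, and Tek, Egfl7, Cldn5, Sox17 and Erg had none in the knockout list.

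Ductal genes had 7 of 12 with a peak. Epcam reached a −log10 q of 13.9, and Hes1, Spp1 and Krt7 lay between 6.46 and 6.67, with Krt8, Sox9 and Muc1 at 4.12, 3.04 and 2.83. Members without a knockout peak included Krt19, Krt18, Cftr and Onecut1, of which Krt18 had 2 control peaks. Stromal and pericyte genes had 4 of 15 (26.7%), namely the pericyte gene Rgs5 at 10.9, Pdgfrb at 10.6, Thbs1 at 3.97 and Cspg4 at 2.62. Col1a1, Col1a2, Col3a1, Col6a3, Pdgfra, Sparc, Dcn, Lum, Acta2, Des and Fn1 had none. This share has an interval of 7.79 to 55.1% and cannot be separated from that of all genes.

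Immune genes had 2 of 14 with a peak, Cd74 (5.93) and H2-Aa (2.64), both antigen presentation genes. Ptprc, Cd68, Adgre1, C1qa, C1qb, C1qc, Lyz2, Csf1r, Cd14, Itgam, Cd3e and Cd79a had none, and of these C1qa and C1qb had 1 control peak each. Acinar genes also had 2 of 14, Try4 (4.76) and Cpa1 (3.70), at folds of 2.11 and 1.43. Cela1, Cela2a, Try5, Amy2a5, Pnlip, Ctrb1, Cel, Bhlha15, Ptf1a, Rbpjl, Prss2 and Zg16 had none, and of these Bhlha15 had 2 control peaks. None of 8 Schwann and glia genes had a peak, among them Sox10, S100b, Ngfr, Foxd3, Gfap and Erbb3. The intervals of these lists, 1.78 to 42.8% for the immune and the acinar list and 0 to 36.9% for the glial list, all include 21.5%. Bases were shared with a control peak by 40% of the 5 delta cell peaks, 37.5% of the 8 ductal and 33.3% of the 6 stromal peaks. This share was 50% of the 2 acinar peaks, 0% of the 2 immune peaks and 100% of the 2 PP and epsilon cell peaks. It was 70% of the 30 pan-endocrine transcription factor peaks and 63.9% of the 36 m6A machinery peaks, beside 61.6% of all knockout peaks.

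Transcripts of the m6A machinery itself carried knockout peaks in 15 of 21 cases (71.4%, 47.8 to 88.7), beside 14 of 21 in the control list. Among the writer subunits, Virma reached a −log10 q of 37.3 with 3 peaks, Rbm15 had 2 peaks over 1738 nt, Rbm15b had 4 listed peaks that partly overlap and cover 891 nt, and Zc3h13 had 3 over 812 nt. Cbll1 had 2 peaks, and Mettl3 and the separate methyltransferase gene Mettl16 had 1 each. The Mettl3 peak had a −log10 q of 2.54 and a fold of 8.15 that lies on the repeated step, and it shared no base with a control peak. Of the readers, Ythdc1, which binds m6A in the nucleus, had 7 peaks over 1626 nt, the most of the list. Ythdf3 had 3 peaks over 1470 nt and Ythdf2 had 3 over 662 nt. Hnrnpa2b1 and Hnrnpc had 2 and 1. The demethylase genes Alkbh5 and Fto had 2 and 1. The Fto peak had a −log10 q of 2.02 and a fold of 13, also on the repeated step, and shared no base with a control peak. Mettl14, Ythdf1, Ythdc2, Igf2bp1, Igf2bp2 and Igf2bp3 had none, and of these Ythdf1 had 3 control peaks and Igf2bp2 had 2.

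By gene family, chromatin methylation enzymes were covered most. Families were set by the start of the gene symbol, and 24 of 34 lay above the 21.5% of all protein-coding genes. The whole interval lay above it for 10 of them and below it for 5 families, and the others could not be separated from it. Of 34 Kdm, Kmt and Setd genes, which encode histone lysine demethylases and methyltransferases, 27 had a knockout peak (79.4%, 62.1 to 91.3), with a mean of 3.37 peaks. Kmt2a and Kmt2d had 12 each and Setd2, a histone H3 lysine 36 methyltransferase gene, had 8 over 3812 nt. The Krüppel-like factor genes had 10 of 17 (58.8%), led by Klf10 with 3 peaks. The GTPase regulators Arhgap and Arhgef had 20 of 59 (33.9%) with a mean of 3 peaks, and Arhgap35 had 7 over 3246 nt, Arhgap5 had 6 and Arhgap21 had 6.

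Zinc finger genes with the symbol Zfp made the largest covered family, with 179 of 397 genes (45.1%, 40.1 to 50.1) and 338 peaks. Zfp292 had 8 peaks over 5197 nt, Zfp638 had 6 and Zfp644 had 5. The median over these genes of each gene's median fold was 5.29, beside 3.61 over all protein-coding genes with a peak. Their median best −log10 q per gene was 4.11, beside 5.46. Only 5.03% of Zfp peaks covered more than 1 exon. The initiation factor family Eif, with a similar share of genes covered (25 of 56, 44.6%), had 39.1% of its peaks over more than 1 exon. Eif4g2 and Eif4g3, scaffolds of translation initiation, had 4 peaks each, and Eif5b had 3 over 1469 nt.

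The Dnaj co-chaperones had 21 of 45 (46.7%), with 3 peaks each in Dnajc14, Dnajb1 and Dnajc5. The ubiquitin proteases Usp had 24 of 56 (42.9%), with 4 peaks each in Usp34, Usp9x and Usp8. The F-box genes had 24 of 78 (30.8%, 20.8 to 42.2), with 3 peaks each in Fbxo11, Fbxl5 and Fbxo21, and the Trim genes had 19 of 68 (27.9%, 17.7 to 40.1), led by Trim26 with 4. The intervals of both include the share of all genes. Proteasome genes had 11 of 51 (21.6%), led by Psmd3 and Psmc4 with 2 peaks each.

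Protocadherins, adhesion proteins of neural and epithelial cells, had 28 of 69 genes with a peak (40.6%, 28.9 to 53.1), but with no peak over a junction. The median over these genes of each gene's median fold was 1.86, beside 3.61 over all protein-coding genes with a peak. Over the single peaks of the Pcdhb and Pcdhg clusters the median fold was 1.48. Pcdh1 had 5 peaks over 1651 nt with folds from 1.85 to 3.31. Of the 29 Pcdh symbols with a peak in the file, not all of which are protein-coding in RefSeq, 25 belonged to the Pcdhb and Pcdhg clusters on chromosome 18, whose 38 peaks stood at only 31 distinct positions, and 24 of the 38 shared bases with another knockout peak on the same strand. Transcripts of the Pcdhg cluster share their last exons and lie within each other's spans, so a peak there cannot be assigned to 1 gene. Pcdhga5 and Pcdhga1 had 3 listed peaks each.

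**Figure D4:**
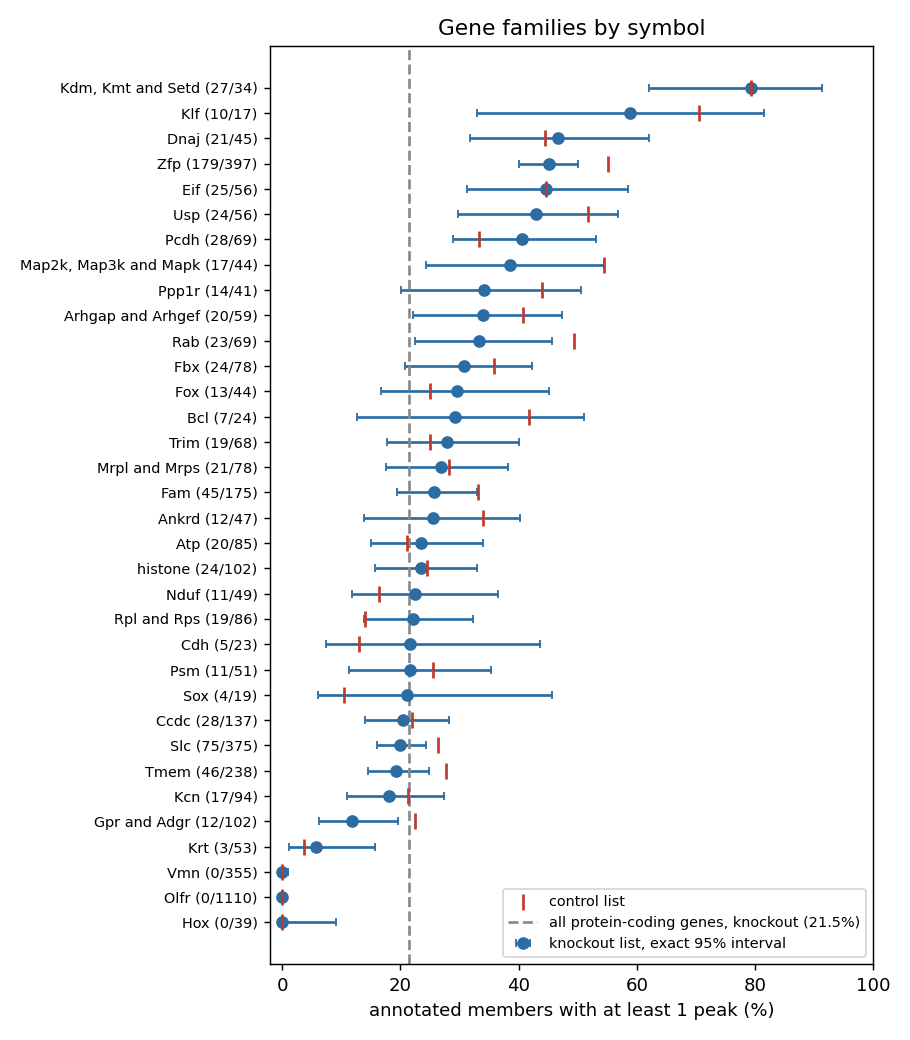
Percentage of the annotated members of each of 34 gene families with at least 1 knockout peak (points, exact 95% intervals), with the control list's share as a red tick. The Kdm, Kmt and Setd group sits highest at 79.4%, and the Hox, Olfr and Vmn families sit at 0%.

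Signalling and trafficking families lay in between. The Mapk group, with Mapk8ip3, Map3k1 and Mapk1ip1 at 2 peaks each, had 17 of 44 genes (38.6%). The Rab group, set by symbol and so including the Rab11 effector gene Rab11fip2, had 23 of 69 (33.3%), and Rab5a and Rab11fip2 had 3 peaks each. The Ppp1r group, regulators of protein phosphatase 1, had 14 of 41 (34.1%), and Ppp1r15a, a stress-induced eIF2α phosphatase subunit gene, had 4 peaks over 1113 nt. Fox genes had 13 of 44 (29.5%), with 4 peaks each in Foxa2 and Foxo3 and 3 in Foxo1, a forkhead factor downstream of insulin signalling. Bcl genes had 7 of 24, led by Bcl9 with 6 peaks, and Ankrd genes 12 of 47, with 5 peaks each in Ankrd17, Ankrd12 and Ankrd50.

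Ribosomal protein genes had 19 of 86 (22.1%, 13.9 to 32.3), with Rpl41 at a −log10 q of 80.7 and a fold of 1.55. Mitochondrial ribosomal genes had 21 of 78 (26.9%) with exactly 1 peak each, led by Mrpl54 at 18.2. Histone genes had 24 of 102 (23.5%), and H1f4 had 2 peaks over 774 nt with a best −log10 q of 44.5. The Nduf subunits of respiratory complex I had 11 of 49 (22.4%), with 3 peaks in Ndufb10, and 40.0% of their 15 peaks covered more than 1 exon. The Atp genes had 20 of 85 (23.5%), and Atp8b1, a lipid flippase gene, had 3 peaks.

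The Slc, Tmem and potassium channel families and the Gpr and Adgr receptors had shares below that of all genes, though most of their intervals include it. Slc genes had 75 of 375 (20%, 16.1 to 24.4), led by Slc7a14 with 5 peaks and Slc7a8, an amino acid transporter gene, with 4. Tmem genes had 46 of 238 (19.3%), led by Tmem127. Potassium channel genes had 17 of 94 (18.1%), and Kcnj11, the pore subunit of the beta cell KATP channel, had the most peaks of them, 5 over 1047 nt with folds from 2.18 to 3.85. The Gpr and Adgr receptors had 12 of 102 (11.8%, 6.23 to 19.6), led by Gpr158 with 4 peaks, an interval that lies below the share of all genes. Cadherins had 5 of 23 (21.7%), with 3 peaks each in Cdh1 and Cdh2, and Sox genes had 4 of 19 (21.1%), with 2 peaks in Sox4. Keratin genes had 3 of 53 (5.66%), namely Krt7, Krt8 and Krt222.

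No peak was listed for 39 Hox genes, 1110 olfactory receptor genes (Olfr) or 355 vomeronasal receptor genes (Vmn). The exact upper limits of these shares are 9.03%, 0.332% and 1.03%, and 3 counts of the total, the limit that a count of 0 allows, give 7.69%, 0.270% and 0.845%. The remaining symbol groups, Ccdc and Fam, had 28 of 137 (20.4%) and 45 of 175 genes (25.7%), with 3 peaks in Ccdc92 and 5 in Fam171a1.

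Identifiers without a gene name numbered 573, with 714 peaks (7.59% of the list). Of these, 98 identifiers with 123 peaks lay within the span of a single RefSeq protein-coding gene on its strand, 67 identifiers with 120 peaks lay within that of a single lncRNA gene, and 405 identifiers with 467 peaks could not be placed in this way. The genes below were chosen after their values were seen, and placement is by position alone. The identifier inside Kcnq1ot1, an imprinted antisense transcript that silences neighbouring genes in cis, had 24 peaks over 5573 nt, the second highest count of the list, beside 9 control peaks. Meg3, a maternally expressed imprinted lncRNA, contained an identifier with 8 peaks over 4178 nt, beside 7 in the control, and Rian, from the same imprinted region, one with 5, beside 2. The identifier inside Tug1 had 4 peaks over 2221 nt, beside 5 in the control. Inside Malat1, a nuclear speckle transcript, 3 partly overlapping peaks covered 2040 nt, beside 4 control peaks, with a q listed as 0 for the strongest.

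Peaks were concentrated toward the 3′ end of the genomic gene span. For 8484 peaks in protein-coding genes, 39.6% of midpoints lay in the last decile of the RefSeq gene span and 5.56% in the first decile. Within 1000 bp of the gene end lay 18% (17.2 to 18.9), and within 1000 bp of the start 5.39% (4.92 to 5.89). Distances are genomic and include introns, so they do not place peaks in the coding sequence or untranslated regions. Exonic bases per decile were not counted, so these shares cannot be told apart from the layout of exons along the span.

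**Figure D5:**
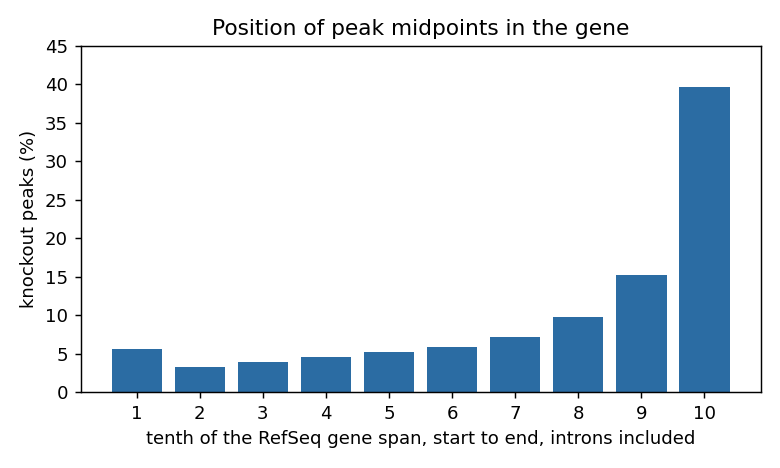
Percentage of 8484 knockout peaks whose midpoint lies in each decile of the RefSeq gene span, from start to end. The last decile holds 39.6%, the ninth 15.2% and the second, the lowest, 3.24%.

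A smaller group of genes had a peak at the very start. Of 3810 genes with a knockout peak and a start in the promoter table, 108 (2.83%, 2.33 to 3.41) had one covering part of the first 50 transcribed bases. The strongest by q, named after their values were seen, were Scg2 and Scg3, the polyubiquitin gene Ubb with a peak of 1376 nt and a fold of 6.79, B2m of MHC class I with 445 nt over 4 exons, and the linker histone gene Hist1h1c with 1200 nt in its exon. In short genes such as Ubb and Hist1h1c, such a peak covers most of the message rather than its start alone.

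The stronger a knockout peak was by q, the more often the control list had a peak at the same place. In the quintile of peaks with the lowest −log10 q, 34.5% shared bases with a control peak. The next quintiles gave 42.7%, 59.4% and 77.5%, and the highest quintile gave 93.7%. Median peak length went from 150 to 412 nt over the same quintiles, and longer peaks share a base with another peak more easily. At the level of genes, 4137 of the 5378 identifiers (76.9%) also had a control peak, and they were 66.2% of the control list's 6250. Peaks of Jun, Irs2, Pdx1, Neurod1 and Chga and both Gcg peaks overlapped a control peak, and the peaks of Ins2, Hhex, Ttr and Pdgfrb did not overlap one. The peaks were called separately at unknown depths, so an unmatched peak does not show a gain of m6A.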

How the data were processed

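Reads were trimmed and aligned with fastp 0.19.11 and BWA 0.7.12 on GRCm38, per the submitters' processing notes. Per the labels' protocols, about 100 nt fragments were immunoprecipitated and the authors called peaks with exomePeak 2.16.0 at a q threshold of 0.05, each IP against the input of its genotype. Annotation release, strandedness and depth are not given in the sources used here. The deposited p-value, the deposited score columns (log10 of p and q) and the deposited fold, a ratio of IP over input, were used as given, to describe and rank peaks within a list.

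All computing was done in Python 3.11.15 (pandas 2.3.3, scipy 1.17.1). Exonic length is the sum of a peak's blocks, and peaks overlap if they share 1 base of a block on the same strand. Of 4803 gene symbols, 4746 matched RefSeq GRCm38.p6, 84 through a synonym. Opposite-strand knockout peaks shared bases with 389 peaks (4.13%). Coordinates are 1-based. The overlap and motif code was tested on simulated data.

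The members and gene lists were chosen with earlier results of these data known. Named genes were, skipping clone-named, mitochondrial and unnamed ones, the 10 with the most peaks, the 10 peaks with the highest −log10 q, the 8 longest peaks, the 3 genes with the most peaks per family, up to 10 list members by q, and listed genes without a peak. Every m6A machinery gene was named. Some genes that this rule names are left out of the text. Fits across genes were not possible with 1 library pair per genotype.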

Additional observations from a re-analysis of the deposited data

How the results depend on the processing

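No paired analysis was possible because the lists come from 1 pool of RNA per genotype, and no replicate could be left out. Of 42 alternative values, 26 stayed within the interval or tolerance and 16 moved beyond it, and the cause was not tested. At a q of 0.001 or less, genes with 1 peak made up 64.2% and those with 4 or more 6.90%, median length was 241 nt, peaks over more than 1 exon were 19.5%, 17.1% of all genes had a peak, and 64.6% of knockout peaks overlapped the control list. At a fold of at least 2, the first share was 62.6%, all genes 20.5% and listed genes 43.9%. Without unnamed identifiers, the shares with 1 and with 4 or more peaks and over more than 1 exon were 58.0%, 8.78% and 18.9%. With all RefSeq genes as denominator 9.49% had a peak. Under a 50% reciprocal overlap 41.4% of peaks were shared. In genes with 1 peak, 30% lay within 1000 bp of the end and 1.85% within 200 bp of the start. The count of families above the share of all genes ranged from 20 to 30. Leaving out peaks facing another strand's peak, or mitochondrial peaks, both chosen after seeing the data, moved no value beyond its tolerance. Without the peaks facing another strand's peak, GGAC was counted 73 times against 35 and GGACT 15 times against 8. Depth is unknown, so peaks with few reads cannot be told from absent ones.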
